A study of Zea mays with 24 samples.

Results

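ZmMBF1c (GRMZM2G051135), ZmLSD1 (GRMZM2G089106) and ZmCNR9 (GRMZM2G023081) are 3 maize genes that the study examined as candidate targets of the transcription factor ZmNF-YA1, and they were taken here by their gene IDs, 3 of the 37467 genes listed in at least 1 library. Leaf RNA was sequenced in 24 libraries that form 3 sets of 8, with 2 libraries in each of 12 groups, and every group was labelled as leaf at the V4 stage. The B104 set compared the inbred line B104 with ZmNF-YB16 OE, an overexpression line in the B104 background, each under normal conditions and under drought. The DH4866 set compared the inbred line DH4866 with ZmNF-YA1 OE under both conditions, and the study drove its ZmNF-YA1 transgene with the stress-responsive RD29A promoter. The W22 set compared the inbred line W22 with the zmnf-ya1 mutant (m67), which carries a Mu transposon insertion, under both conditions. According to the methods, leaves of several plants were pooled in each sample of the W22 and B104 sets, and the B104 set was sampled as field-grown ear leaves after pollination, which goes against its V4 label. The methods describe no RNA sequencing of the DH4866 set, so how its plants were grown and sampled is not given in the sources used here. Levels are given as FPKM, fragment counts scaled for transcript length and for the mapped fragments of the library. A gene is called differentially expressed (DEG) where edgeR's quasi-likelihood test gave an adjusted P below 0.05 and its log2 fold change was more than 1 in size. The 3 genes had been picked by the study among the DEGs of the W22 set, so their values in that set are a description and were not tested. The study does not say whether the B104 or DH4866 set had a part in that choice. The tests in those sets are therefore not known to be independent of it.

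NF-Y transcription factors are heterotrimers of an NF-YA, an NF-YB and an NF-YC subunit that bind the CCAAT box of promoters, with the NF-YA subunit giving the sequence specificity. Multiprotein bridging factors are small transcriptional coactivators that link DNA-bound factors with the TATA-binding protein, and in Arabidopsis the MBF1c form is induced by heat and other stresses and is needed for tolerance of heat. LSD1 of Arabidopsis is a small zinc finger protein that restrains cell death, and it acts with metacaspases, catalases and the EDS1 and PAD4 proteins. Cell number regulators (CNR) are the maize relatives of the tomato fruit weight gene fw2.2, and maize CNR1 limits cell number and organ size. The role of ZmCNR9 itself is less well known.

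The labels were checked first. ZmNF-YA1 (GRMZM2G000686) had 278 and 298 counts in W22 against 91 and 107 counts in the zmnf-ya1 mutant without drought, a log2 difference of -1.16 (SE 0.12), and 121 and 145 against 110 and 102 counts under drought, a log2 difference of -0.30 (SE 0.13). In the DH4866 set it had 236 and 247 counts in DH4866 against 278 and 260 in ZmNF-YA1 OE under normal conditions, and 146 and 150 against 133 and 136 under drought. The log2 fold changes were 0.10 (SE 0.09, adjusted P = 0.544, edgeR) and -0.14 (SE 0.11, adjusted P = 0.424, edgeR), so ZmNF-YA1 was not detectably higher in the libraries labelled ZmNF-YA1 OE than in their wild type. In the W22 set the libraries labelled zmnf-ya1 kept counts of ZmNF-YA1, close to those of W22 under drought. Every direction drawn below from ZmNF-YA1 OE, and from zmnf-ya1 under drought, therefore rests on the labels. The gene ID of ZmNF-YB16 was not used here, and its level was not checked. Summed over genes, libraries of the B104 set held 3429314 to 5608889 expected counts, those of the DH4866 set 20696448 to 21289711 and those of the W22 set 20863136 to 21178202, so low genes were measured with fewer reads in the B104 set. The summed FPKM of the leaf marker list, which holds 23 genes for Rubisco small subunits, phosphoenolpyruvate carboxylase and chlorophyll a-b binding proteins, was 29057 to 29294 in B104 and 24066 to 24382 in ZmNF-YB16 OE under normal conditions, and 5910 to 5950 and 6374 to 6810 under drought. In the DH4866 set the same sum lay between 78653 and 85347 in all 8 libraries. In the W22 set it was 73074 to 74925 in W22 and 96868 to 102458 in zmnf-ya1 under normal conditions. Under drought it was 87365 to 87419 in W22 and 83301 to 84635 in zmnf-ya1. The TMM scaling factors of the normal libraries were 1.13 in W22 and 0.83 and 0.88 in zmnf-ya1. The part of the leaf markers in the values of the W22 set was not tested. Kernel zeins summed to at most 1.08 FPKM in the B104 set.

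ZmMBF1c was the most abundant of the 3 genes in every library, and its response to drought was opposite in the wild types of the B104 and DH4866 sets. In B104 it measured 54.23 and 39.44 FPKM under normal conditions and 73.75 and 87.16 FPKM under drought. In DH4866 it measured 32.96 and 33.66 FPKM under normal conditions and 5.06 and 5.69 FPKM under drought. All drought libraries were above all normal libraries in B104 and below them in DH4866, and 74.1% and 80.6% of the genes tested in these comparisons also had groups that do not overlap (after TMM scaling). ZmMBF1c fell in DH4866 (log2 fold change -2.60, SE 0.10, adjusted P = 1.73e-11, edgeR), where 12.9% of all 24604 genes tested were DEGs in that direction. In B104 it was higher under drought by 0.45 on the log2 scale (SE 0.12, adjusted P = 0.00399, edgeR), which passed the threshold on P, as did 51.2% of the 21970 genes tested, but not that on the fold change. The difference between both responses, DH4866 minus B104, was -3.07 (SE 0.17, adjusted P = 7.81e-13, edgeR fit of 16 libraries), and 33.3% of the genes in that fit were DEGs. The sets differ in inbred line and depth, and the methods describe how plants were grown and sampled for the B104 set but not for the DH4866 set, so these cannot be told apart in this difference.

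**Figure D1:**
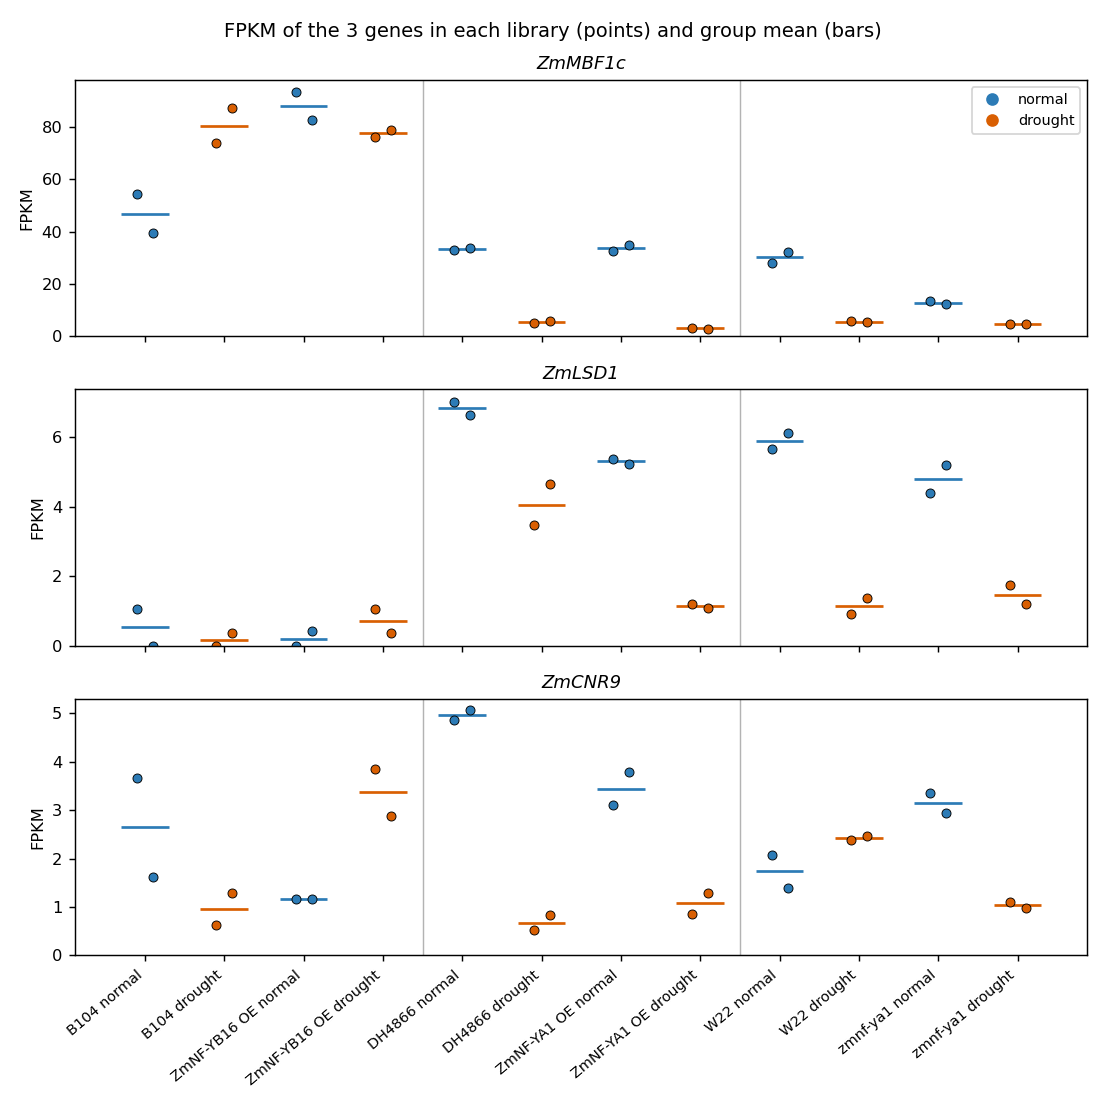
FPKM (linear axis) of ZmMBF1c, ZmLSD1 and ZmCNR9 in each of the 24 libraries (points, coloured by condition) with the mean of each group of 2 (bars), in the order B104, DH4866 and W22 set. ZmMBF1c lies between 39.44 and 93.46 FPKM in the B104 set and at 5.82 FPKM or below in all drought libraries of the other sets, and ZmLSD1 lies at 1.07 FPKM or below throughout the B104 set.

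In the overexpression lines ZmMBF1c was again low only in the drought libraries of the DH4866 set. ZmNF-YA1 OE measured 32.48 and 34.71 FPKM under normal conditions and 3.1 and 2.86 FPKM under drought. In FPKM the normal libraries of this line interleave with those of DH4866, and its drought libraries lie below the drought libraries of DH4866. After TMM scaling the normal libraries do not interleave, with 24.02 and 24.9 CPM in ZmNF-YA1 OE and 25.4 and 25.6 CPM in DH4866. On that scale groups that do not overlap made up 78.7% of genes for drought in ZmNF-YA1 OE and, between the lines, 55.8% under normal conditions and 62.1% under drought. ZmMBF1c fell under drought in ZmNF-YA1 OE (log2 fold change -3.40, SE 0.11, adjusted P = 3.54e-12, edgeR), and 12% of the genes tested were DEGs in that direction. Between the lines it differed by -0.06 under normal conditions (SE 0.07, adjusted P = 0.644, edgeR) and by -0.86 under drought (SE 0.15, adjusted P = 0.000947, edgeR). The latter passed the threshold on P, as did 22.6% of genes, and not that on the fold change. The drought response differed between the lines by -0.80 (SE 0.17, adjusted P = 0.00417, edgeR), and 18.1% of genes passed that P threshold.

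ZmNF-YB16 OE measured 93.46 and 82.54 FPKM of ZmMBF1c under normal conditions and 76.25 and 78.7 FPKM under drought. Both normal libraries of this line were above both normal libraries of B104, whereas the drought libraries of the lines overlap. Among all genes 62.1% had groups of lines that do not overlap under normal conditions and 64.9% under drought, and 74.3% had groups that do not overlap for drought in ZmNF-YB16 OE. ZmMBF1c was higher in ZmNF-YB16 OE than in B104 under normal conditions by 0.79 on the log2 scale (SE 0.12, adjusted P = 2.83e-05, edgeR), past the threshold on P, as were 30.3% of genes, but not past the threshold on the fold change. Under drought the lines differed by -0.10 (SE 0.11, adjusted P = 0.537, edgeR). The response of ZmNF-YB16 OE to drought was -0.44 (SE 0.11, adjusted P = 0.00174, edgeR; 51.3% of genes passed that P threshold), and it differed from that of B104 by -0.89 (SE 0.16, adjusted P = 0.000486, edgeR; 17.7% of genes). Without B104 normal replicate 1 the difference of the lines under normal conditions (1.11) and that of the responses (-1.21) passed the threshold on the fold change too, and the latter also did so without ZmNF-YB16 OE normal replicate 2 or B104 drought replicate 1 (both -1.01). The summed leaf markers given above fell with drought in both lines of this set, and their part in these values was not tested. Scaling by the total counts alone gave a drought response of 0.74 in B104 and -0.19 in ZmNF-YB16 OE, and the latter no longer passed the threshold on P (adjusted P = 0.143, edgeR). With it the median over all genes stood at 0.29 and 0.26 on the log2 scale, against 0 and 0.004 with TMM. A change of scaling shifts all genes by about the same amount, so these values do not show which scaling is right.

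Without a test, ZmMBF1c of the W22 set measured 27.98 and 32.3 FPKM in W22 and 13.29 and 12.2 FPKM in the zmnf-ya1 mutant under normal conditions. Under drought it measured 5.82 and 5.26 FPKM in W22 and 4.67 and 4.74 FPKM in zmnf-ya1. The drought libraries lay below the normal libraries in both genotypes, and the mutant lay below W22 in both conditions. The share of all genes with groups that do not overlap was not computed for the W22 set, here and below. In the other sets it was 74.1% to 80.6% for drought and 55.8% to 64.9% between lines (after TMM scaling). The log2 differences were -2.30 (SE 0.12) for drought in W22, -1.66 (SE 0.14) for drought in zmnf-ya1, -0.84 (SE 0.10) for the genotypes under normal conditions and -0.21 (SE 0.16) under drought. Ordered by mean within sets, ZmMBF1c was highest in ZmNF-YB16 OE under normal conditions (88.0 FPKM ± 7.72, SD, n = 2), followed by B104 under drought (80.5 ± 9.48), ZmNF-YB16 OE under drought (77.5 ± 1.73) and B104 under normal conditions (46.8 ± 10.5), and the first 3 of these overlap in their libraries in FPKM. In the DH4866 set the normal groups of both lines overlap (33.6 ± 1.58 and 33.3 ± 0.495 FPKM), and DH4866 (5.38 ± 0.445) and ZmNF-YA1 OE (2.98 ± 0.17) under drought follow without overlap. The order in the W22 set was W22 normal (30.1 ± 3.05), zmnf-ya1 normal (12.7 ± 0.771), W22 drought (5.54 ± 0.396) and zmnf-ya1 drought (4.71 ± 0.0495), with no overlap between neighbours.

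ZmLSD1 was near the limit of detection in the B104 set and was measured in all libraries of the other sets. In B104 it had 3 and 0 counts under normal conditions and 0 and 1 counts under drought. In ZmNF-YB16 OE it had 0 and 1 counts under normal conditions and 3 and 1 counts under drought. No library of this set exceeded 3 counts, which is also the limit that a count of 0 allows (0.535 to 0.875 CPM in these libraries, for counting error only), so a difference between these groups was not detectable at this depth. In FPKM these libraries lay between 0 and 1.07, and the gene did not pass the filter of the B104 set. It did enter the fit of both sets, and no value of that fit is given for it, because its B104 libraries stand at this limit. The same limit was 0.141 to 0.145 CPM in the DH4866 set.

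ZmLSD1 of the DH4866 set was lowest in ZmNF-YA1 OE under drought. DH4866 measured 7.02 and 6.63 FPKM under normal conditions (76 and 72 counts) and 3.46 and 4.65 FPKM under drought (38 and 51 counts). ZmNF-YA1 OE measured 5.36 and 5.24 FPKM under normal conditions (58 and 56 counts) and 1.19 and 1.1 FPKM under drought (13 and 12 counts). The 4 groups do not overlap. After TMM scaling 80.6% of all genes had no overlap for drought in DH4866 and 78.7% in ZmNF-YA1 OE. Between the lines the share was 55.8% under normal conditions and 62.1% under drought. ZmLSD1 fell under drought in ZmNF-YA1 OE (log2 fold change -2.11, SE 0.26, adjusted P = 7.32e-06, edgeR), and in DH4866 its log2 fold change was -0.72 (SE 0.20, adjusted P = 0.00509, edgeR; 62.7% of genes passed that P threshold), which is short of the threshold on the fold change. Between the lines it differed by -0.44 under normal conditions (SE 0.19, adjusted P = 0.127, edgeR). Under drought it was lower in ZmNF-YA1 OE (log2 fold change -1.83, SE 0.28, adjusted P = 0.000298, edgeR), a direction in which 1.58% of genes were DEGs. The drought response was more negative in ZmNF-YA1 OE (difference -1.39, SE 0.34, adjusted P = 0.0107, edgeR), where 3.04% of genes were DEGs in that direction. This call was lost without DH4866 replicate 2 under drought (-1.16, adjusted P = 0.0564, edgeR) and without ZmNF-YA1 OE replicate 2 under drought (-1.34, adjusted P = 0.0572, edgeR), and it did not pass with DESeq2 (-1.39, adjusted P = 0.193).

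Libraries of the W22 set gave for ZmLSD1 5.66 and 6.13 FPKM in W22 and 4.4 and 5.21 FPKM in zmnf-ya1 under normal conditions. Under drought it measured 0.92 and 1.38 FPKM in W22 and 1.74 and 1.2 FPKM in zmnf-ya1. The drought libraries were below the normal libraries in both genotypes, by log2 differences of -2.20 (SE 0.28) in W22 and -1.92 (SE 0.27) in zmnf-ya1. The genotypes overlap under drought. They differed by 0.10 (SE 0.22) on the log2 scale under normal conditions and by 0.38 (SE 0.36) under drought, and the interaction was 0.27 (SE 0.42). On the FPKM scale the mutant was lower under normal conditions (4.8 ± 0.573 against 5.89 ± 0.332, SD, n = 2), and scaling by the total counts alone gave -0.29, so the sign of this small difference depended on the scaling between libraries.

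**Figure D2:**
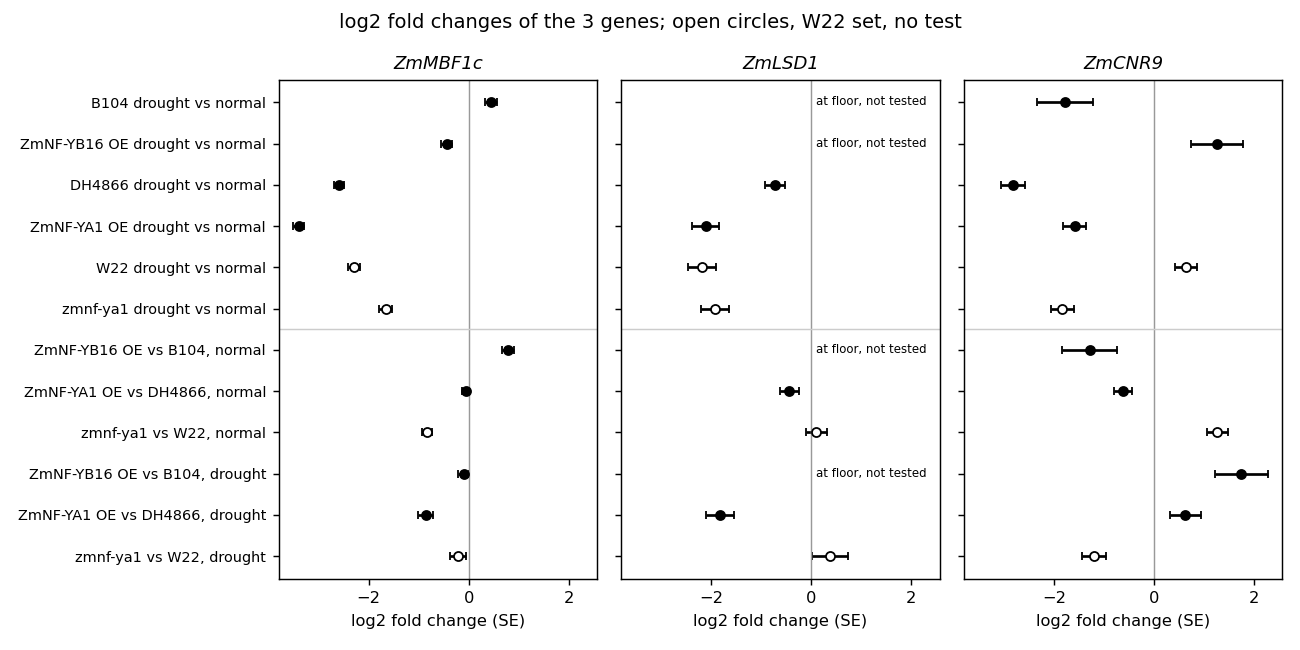
log2 fold changes (x axis, bars are SE) of the 3 genes for drought against normal conditions in each line (upper rows) and for each line against its wild type (lower rows), with the untested W22 set as open circles and comparisons at the limit of detection marked as not tested. ZmMBF1c is at -2.60 and -3.40 for drought in the DH4866 set against 0.45 and -0.44 in the B104 set, and ZmCNR9 lies on both sides of 0 in the B104 set.

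ZmCNR9 was a low gene, and its drought response took opposite directions in B104 and ZmNF-YB16 OE. In B104 it measured 3.67 and 1.62 FPKM under normal conditions and 0.63 and 1.29 FPKM under drought, which were 23 and 6 against 4 and 8 counts. In ZmNF-YB16 OE it measured 1.16 and 1.17 FPKM under normal conditions and 3.86 and 2.89 FPKM under drought, which were 8 and 6 against 25 and 17 counts. In FPKM the drought libraries lay below the normal libraries in B104 and above them in ZmNF-YB16 OE. After TMM scaling 74.1% and 74.3% of all genes had no overlap in these comparisons, in either direction. ZmCNR9 fell under drought in B104 (log2 fold change -1.78, SE 0.56, adjusted P = 0.0111, edgeR), in a direction in which 13% of genes were DEGs. It rose in ZmNF-YB16 OE by 1.26 (SE 0.52, adjusted P = 0.0471, edgeR), against 11.3% of genes. The difference between both responses was 3.04 (SE 0.76, adjusted P = 0.00738, edgeR), against 3.23% of genes. Under drought ZmCNR9 was higher in ZmNF-YB16 OE than in B104 by 1.75 (SE 0.53, adjusted P = 0.0143, edgeR; 5.48% of genes), whereas under normal conditions the difference was -1.28 (SE 0.55, adjusted P = 0.0822, edgeR), and without B104 normal replicate 2 it was a DEG (-1.69, adjusted P = 0.0289, edgeR).

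These calls for ZmCNR9 rested on few reads and single libraries. The fall in B104 was lost without B104 normal replicate 1 (-0.90, adjusted P = 0.421, edgeR) and without B104 drought replicate 1 (-1.35, adjusted P = 0.116, edgeR). The difference between the responses was lost without B104 normal replicate 1 (2.15, adjusted P = 0.177, edgeR) and without ZmNF-YB16 OE drought replicate 1 (2.76, adjusted P = 0.0519, edgeR). The difference of the lines under drought was lost without B104 drought replicate 1 (1.33, adjusted P = 0.159, edgeR) and without ZmNF-YB16 OE drought replicate 1 (1.49, adjusted P = 0.135, edgeR), and the rise in ZmNF-YB16 OE was lost without any one of the 6 libraries other than the B104 normal pair, with 0.99 without ZmNF-YB16 OE drought replicate 1 and 1.49 without replicate 2. With DESeq2 the interaction kept its call, and the calls for drought in B104 (-1.75, adjusted P = 0.0683), drought in ZmNF-YB16 OE (1.28, adjusted P = 0.193) and the lines under drought (1.78, adjusted P = 0.0969) did not pass.

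ZmCNR9 fell under drought in both lines of the DH4866 set. It measured 4.87 and 5.07 FPKM in DH4866 under normal conditions and 0.52 and 0.83 FPKM under drought. In ZmNF-YA1 OE it measured 3.1 and 3.78 FPKM under normal conditions and 0.85 and 1.3 FPKM under drought. All drought libraries were below all normal libraries, and 80.6% and 78.7% of all genes also had no overlap for drought in DH4866 and ZmNF-YA1 OE. In FPKM ZmNF-YA1 OE lay below DH4866 under normal conditions and above it under drought. After TMM scaling the drought libraries of the lines overlap, with 0.627 and 1.01 CPM in DH4866 and 1.01 and 1.54 CPM in ZmNF-YA1 OE. The log2 fold changes were -2.83 in DH4866 (SE 0.24, adjusted P = 1.17e-07, edgeR) and -1.58 in ZmNF-YA1 OE (SE 0.23, adjusted P = 3.81e-05, edgeR). The response was less negative in ZmNF-YA1 OE by 1.24 (SE 0.36, adjusted P = 0.0284, edgeR), where 1.94% of genes were DEGs in that direction. This call was lost without ZmNF-YA1 OE normal replicate 1 (1.14), DH4866 drought replicate 1 (0.94) or ZmNF-YA1 OE drought replicate 2 (0.90), and with DESeq2 (1.25, adjusted P = 0.214). Between the lines ZmCNR9 differed by -0.61 under normal conditions (SE 0.18, adjusted P = 0.028, edgeR; 20% of genes passed that P threshold) and by 0.63 under drought (SE 0.32, adjusted P = 0.173, edgeR), neither of them a DEG. The responses of DH4866 and B104 differed by -1.03 (SE 0.63, adjusted P = 0.186, edgeR fit of 16 libraries), and without B104 normal replicate 1 by -1.91 (adjusted P = 0.0436, edgeR).

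For ZmCNR9 the W22 set gave 2.07 and 1.4 FPKM in W22 and 3.36 and 2.94 FPKM in zmnf-ya1 under normal conditions. Under drought it measured 2.39 and 2.46 FPKM in W22 and 1.1 and 0.99 FPKM in zmnf-ya1. The mutant was thus above W22 under normal conditions and below it under drought, with no overlap. Between the lines of the other sets 55.8% to 64.9% of all genes also had no overlap, and this share was not computed for the W22 set. The log2 differences were 1.27 (SE 0.21) and -1.20 (SE 0.24), and the drought responses were 0.64 (SE 0.22) in W22 and -1.83 (SE 0.23) in zmnf-ya1. Ordered by mean, the DH4866 set ran from DH4866 normal (4.97 FPKM ± 0.141, SD, n = 2) through ZmNF-YA1 OE normal (3.44 ± 0.481) and ZmNF-YA1 OE drought (1.07 ± 0.318) to DH4866 drought (0.675 ± 0.219), with no overlap between neighbours in FPKM. The B104 set ran from ZmNF-YB16 OE drought (3.38 ± 0.686) through B104 normal (2.65 ± 1.45) and ZmNF-YB16 OE normal (1.17 ± 0.00707) to B104 drought (0.96 ± 0.467). Neighbours overlap in the B104 set except B104 normal and ZmNF-YB16 OE normal, whose libraries do not.

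Across these comparisons the 3 genes had no shared direction. In DH4866 under drought 2 of the 3 were DEGs, ZmMBF1c and ZmCNR9, both lower, and in ZmNF-YA1 OE all 3 were DEGs and lower, beside 26.9% and 24.2% of all genes tested that were DEGs in either direction. In B104 under drought 1 of 2 genes tested was a DEG, ZmCNR9, and it was lower, and in ZmNF-YB16 OE 1 of 2 was a DEG, again ZmCNR9, and it was higher, beside 25.1% and 23.2% of all genes. Between ZmNF-YA1 OE and DH4866 the only DEG among the 3 was ZmLSD1 under drought, beside 3.18% of all genes, and under normal conditions there was none with edgeR or DESeq2, beside 2.93%, although 2 of the 3 had an unadjusted P below 0.05. Between ZmNF-YB16 OE and B104 the only DEG was ZmCNR9 under drought, beside 11.6%, and under normal conditions there was none of 2 in all libraries with edgeR or DESeq2, beside 11.9%, although both had an unadjusted P below 0.05.

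The other MBF1 genes followed ZmMBF1c in some comparisons and not in others. MBF1.2 (GRMZM2G101480) and MBF1.3 (GRMZM5G800112), coactivators of the same family, were more abundant than ZmMBF1c in every group. MBF1.2 averaged 93.44 FPKM in DH4866 under normal conditions and 124.36 FPKM under drought, a log2 fold change of 0.44 (SE 0.05), and MBF1.3 averaged 151.65 and 202.42 FPKM, also 0.44 (SE 0.05). Neither was a DEG for drought in any line of the 2 tested sets with edgeR or DESeq2, although both had an unadjusted P below 0.05 in each line. Of all genes 23.2% to 26.9% were DEGs in these comparisons. In B104 the drought values were 0.15 (SE 0.05) for MBF1.2 and -0.38 (SE 0.06) for MBF1.3. The only DEG of these 2 genes was MBF1.2 between ZmNF-YB16 OE and B104 under normal conditions, where 11.9% of all genes were DEGs. It measured 143.47 and 145.4 against 281.42 and 272.43 FPKM (log2 fold change -1.02, SE 0.06, adjusted P = 1.55e-11, edgeR). Without B104 normal replicate 1 the value was -0.97 and without ZmNF-YB16 OE normal replicate 1 it was -0.99, both short of the threshold on the fold change. ZmMBF1c differed there in the opposite direction, by the 0.79 given above. MBF1.2 of the W22 set averaged 155.01 FPKM in W22 and 100.05 FPKM in the zmnf-ya1 mutant without drought, and 93.99 and 70.64 FPKM with drought, which is the order of groups of ZmMBF1c, whereas MBF1.3 lay between group means of 146.26 and 165.22 FPKM. All 3 genes were lower in ZmNF-YA1 OE than in DH4866 under drought at an unadjusted P below 0.05 (edgeR), by -0.30 for MBF1.2 and MBF1.3 and -0.86 for ZmMBF1c on the log2 scale. None of them was a DEG there, beside 3.18% of all genes.

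**Figure D3:**
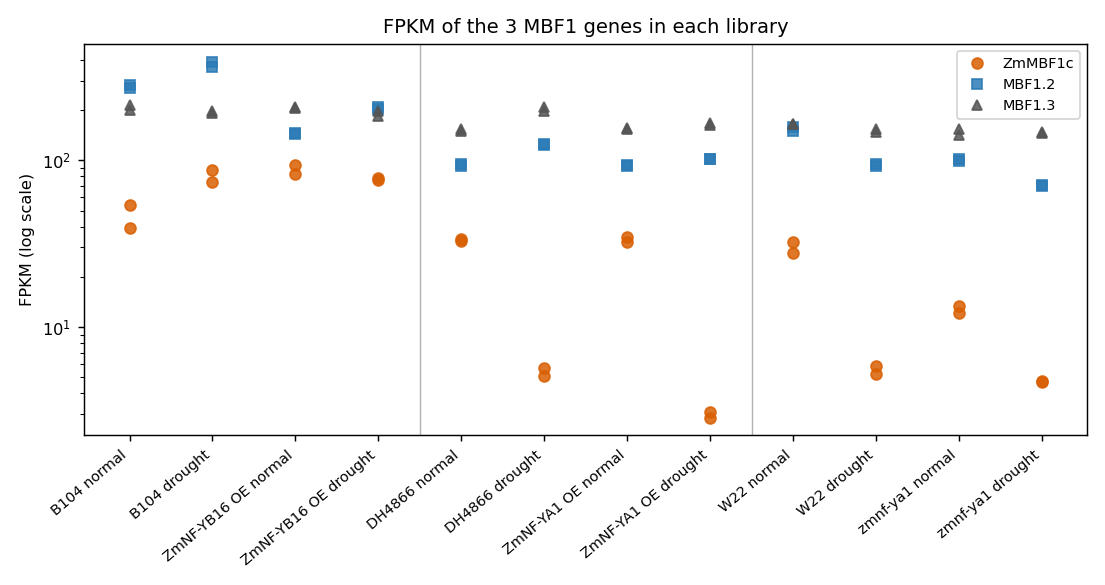
FPKM (log axis) of ZmMBF1c, MBF1.2 and MBF1.3 in each of the 24 libraries, by group. ZmMBF1c lies below both other genes in every group and drops to 2.86 to 5.82 FPKM in the drought libraries of the DH4866 and W22 sets, where the group means of MBF1.2 are 70.64 to 124.36 FPKM.

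Heat stress factors, the transcription factors that drive heat shock genes, were counted as context for ZmMBF1c. Of 18 such genes 13 were tested in the B104 set, and under drought in B104 4 rose and 1 fell, beside 25.1% of all genes that were DEGs, with a median log2 fold change of 0.27 against 0 over all genes. Those that rose were GRMZM2G002131 (annotated as B-1-like, 2.37), GRMZM2G139535 (1.48), GRMZM2G164909 (annotated as heat shock factor protein 7, 1.84) and GRMZM2G098696 (2.34). In ZmNF-YB16 OE 3 rose, beside 23.2% of all genes that were DEGs, and none fell with edgeR or DESeq2, 4 being lower at an unadjusted P below 0.05, and the median was -0.26. Of the heat stress factors 14 were tested in the DH4866 set, and under drought 4 fell in each line, beside 26.9% of all genes that were DEGs in DH4866 and 24.2% in ZmNF-YA1 OE, and none rose with edgeR or DESeq2 (3 were higher at an unadjusted P below 0.05 in DH4866 and 0 in ZmNF-YA1 OE). In DH4866 these were both B-2c-like genes GRMZM2G465685 (-1.10) and GRMZM2G165272 (-1.08), the HSF30-type gene GRMZM2G010871 (-2.03) and the B-4b-like gene GRMZM2G129815, which went from 201 and 198 counts to 2 and 2. The list's median was -0.40 in DH4866 and -0.64 in ZmNF-YA1 OE. Between ZmNF-YA1 OE and DH4866 none of the 14 was a DEG with edgeR or DESeq2 in either condition. Among all genes 2.93% were DEGs under normal conditions and 3.18% under drought. At an unadjusted P below 0.05, 5 of the 14 differed under normal conditions (3 higher, 2 lower), and 2 were higher and 7 lower under drought.

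A second LSD1-like gene did not respond in the way ZmLSD1 did. ZmLSD1 itself is annotated in the deposited files as LOL4-like, and RefSeq attaches the synonym LSD1 to another gene, GRMZM2G173425, annotated as zinc finger protein LSD2. That gene had log2 fold changes for drought of -0.05 (SE 0.07) in DH4866, 0.18 (SE 0.07) in ZmNF-YA1 OE, -0.14 (SE 0.14) in B104 and 0.21 (SE 0.13) in ZmNF-YB16 OE. It was a DEG in no comparison of the 2 tested sets with edgeR or DESeq2. Of all genes 23.2% to 26.9% were DEGs for drought and 2.93% to 11.9% between the lines. The partners of LSD1 known in Arabidopsis, 14 maize metacaspase, catalase and EDS1-like genes, went both ways. In DH4866 under drought 4 of 14 rose, all annotated as metacaspases, proteases that act in plant cell death (GRMZM2G120079 1.00, GRMZM2G125314 1.67, GRMZM2G120069 1.12 and GRMZM2G066041 1.21), and 1 fell, the metacaspase GRMZM2G132238 (-2.97). The 5 of 14 stand beside 26.9% of all genes that were DEGs, and the median was 0.13 against -0.01 over all genes. In ZmNF-YA1 OE 3 rose and 1 fell, beside 24.2%. Between the lines none was a DEG with edgeR or DESeq2 in either condition, beside 2.93% of all genes under normal conditions and 3.18% under drought. At an unadjusted P below 0.05, 3 were higher and 3 lower under normal conditions, and 2 were higher and 5 lower under drought. In B104 under drought, where ZmLSD1 could not be tested, 1 of 13 rose, the catalase isozyme B gene GRMZM2G088212 (1.71), and 4 fell, among them catalase3 GRMZM2G079348 (-2.40) and catalase2 GRMZM2G090568 (-1.49), which break down hydrogen peroxide, beside 25.1% of all genes. In ZmNF-YB16 OE 1 rose and 3 fell, beside 23.2%.

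ZmCNR9 shares its place in the genome and part of its reads with CNR10 (GRMZM2G325477). In the RefSeq annotation of a later B73 assembly CNR10 is the next gene after ZmCNR9, and CNR3 stands 2 genes further. The deposited expected counts of ZmCNR9 were whole (within 0.005) in 2 of 8 libraries of the B104 set and in 1 of 8 in each of the other sets, whereas those of ZmMBF1c and ZmLSD1 were whole wherever listed. In the 20 libraries where ZmCNR9 had a fractional count, the sum of its count and that of CNR10 was whole within 0.005 in 12 and within 0.05 in 19. Reads were thus shared out between ZmCNR9 and CNR10 by the counting program, so the values of ZmCNR9 are uncertain to that extent and are not independent of those of CNR10. Summed with CNR10 and CNR3, the drought value in ZmNF-YB16 OE turned from 1.26 to -0.12 and the difference between DH4866 and B104 from -1.03 to 3.22. CNR10 measured 71.51 and 68.07 FPKM in B104 under normal conditions and 0.88 and 0.68 FPKM under drought. In ZmNF-YB16 OE it measured 44.39 and 43.88 FPKM under normal conditions and 49.59 and 40.88 FPKM under drought. CNR10 was thus almost lost in B104 under drought and kept in ZmNF-YB16 OE. It fell in B104 (log2 fold change -6.72, SE 0.23, adjusted P = 7.17e-16, edgeR) against -0.21 in ZmNF-YB16 OE (SE 0.11, adjusted P = 0.118, edgeR), and the difference of 6.51 (SE 0.28) was a DEG in the same direction as the 3.04 of ZmCNR9, which shares reads with it.

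The expected counts of CNR10 were 13.9 and 29.9 times those of ZmCNR9 in B104 under normal conditions and 1 and 0.375 times under drought. In ZmNF-YB16 OE they were 27.2 and 26.8 times and 9.15 and 10.1 times. In the DH4866 set the ratio lay between 2.79 and 3.13 in the normal libraries and between 3.41 and 6.31 under drought. The ratio of the 2 genes was therefore not constant between libraries. CNR10 fell under drought in DH4866 (log2 fold change -1.99, SE 0.11, adjusted P = 9.90e-10, edgeR) and in ZmNF-YA1 OE (-1.04, SE 0.11, adjusted P = 1.23e-06, edgeR), as ZmCNR9 did. CNR10 of the W22 set was at 12.04 and 13.2 FPKM in W22 and 18.78 and 15.51 FPKM in the zmnf-ya1 mutant without drought, and at 15.99 and 14.73 against 5.4 and 4.71 FPKM under drought. The group means of CNR10 in this set had the same order as those of ZmCNR9, although some of its libraries overlap.

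**Figure D4:**
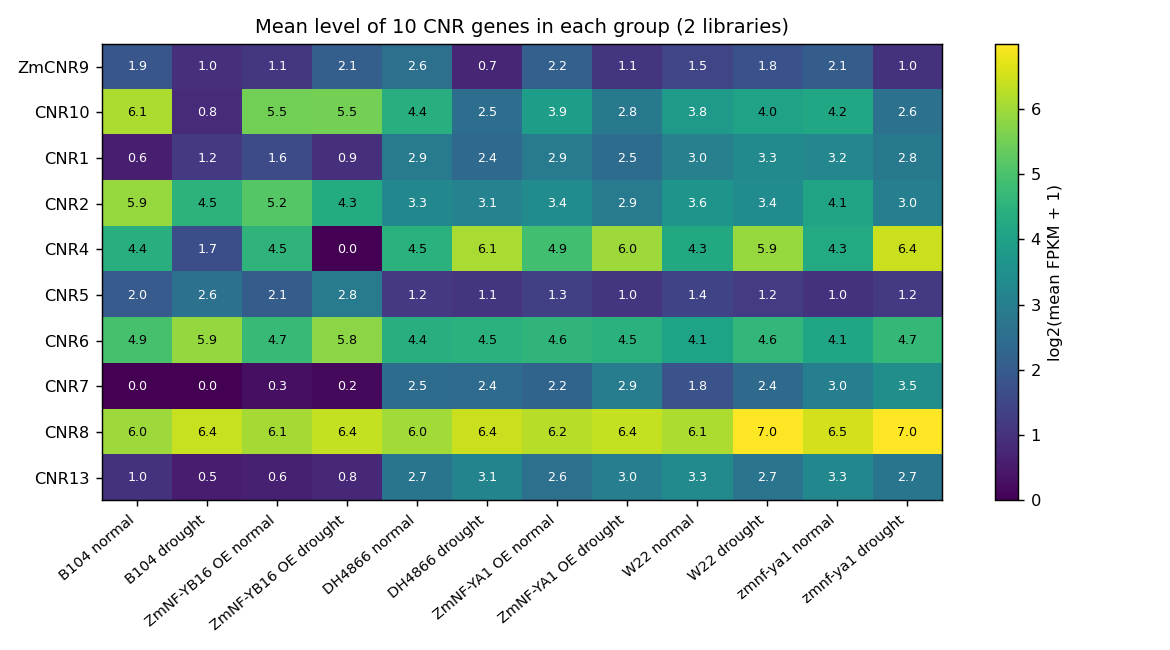
Mean level of 10 CNR genes in each of the 12 groups of 2 libraries, as log2(mean FPKM + 1) in colour and print. ZmCNR9 stays among the low genes, CNR10 is low in B104 under drought and stays near 45.24 FPKM in ZmNF-YB16 OE under drought, and CNR4 is at 0 in ZmNF-YB16 OE under drought but among the higher genes in the drought groups of the DH4866 and W22 sets.

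Of the 12 CNR genes 8 were tested in the B104 set and 10 in the DH4866 set. In B104 under drought 5 of 8 fell (3 with DESeq2), beside 13% of all genes that were DEGs in that direction, with a median log2 fold change of -1.67, and 1 was higher at an unadjusted P below 0.05 without being a DEG. Those that fell were ZmCNR9, CNR13 (-1.64), CNR4 (-3.48), CNR2 (-1.70) and CNR10. The call of CNR13 was lost without B104 normal replicate 1 (-0.59) and without any other single library but B104 normal replicate 2. In ZmNF-YB16 OE only ZmCNR9 rose with edgeR (no gene with DESeq2), and CNR2 (-1.15) and CNR4 fell, beside 23.2% of all genes, with a median of 0.14. CNR4 (GRMZM2G141526) had 88 and 76 counts in ZmNF-YB16 OE under normal conditions and 0 and 0 under drought, so it was at least 56.9-fold lower against a limit of 3 counts over the group. Against B104 under drought, with 8 and 9 counts, it was at least 5.60-fold lower. In DH4866 under drought 2 of 10 rose, CNR4 (1.71) and CNR8 (1.02), and ZmCNR9 and CNR10 fell, beside 26.9% of all genes, with a median of -0.06, and in ZmNF-YA1 OE CNR4 rose (1.21) and ZmCNR9 and CNR10 fell, beside 24.2%. CNR4 thus fell under drought in both lines of the B104 set and rose in both lines of the DH4866 set. Of all genes 2.93% were DEGs between the lines of the DH4866 set under normal conditions and 3.18% under drought. No CNR gene was a DEG between these lines with edgeR or DESeq2 in either condition (5 had an unadjusted P below 0.05 under normal conditions, 2 higher and 3 lower, and 2 higher and 1 lower did under drought). By the DEG rule with edgeR only the drought response of ZmCNR9 differed. That of CNR10, which shares reads with ZmCNR9, differed in the same direction by 0.95, just short of the threshold on the fold change. Leaving out 1 library at a time gave 0.86 to 1.04 for CNR10. Beside the falls in the B104 set stand the leaf markers, of which 18 of 20 tested fell and 1 rose in B104 (median -2.46) and 17 fell and 1 rose in ZmNF-YB16 OE (median -2.13), against 2 of 23 that fell in DH4866 (median 0.10). Their part in the CNR values was not tested, and fewer cells of a type cannot be told apart from less RNA per cell in these bulk leaves.

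The other 4 genes that the study examined as candidate targets of ZmNF-YA1 mostly rose under drought in the DH4866 set, where all drought log2 fold changes of the 3 genes were negative. In DH4866 3 of 4 rose (beside 26.9% of all genes that were DEGs), the lipoxygenase gene ZmLOX5 (GRMZM2G102760, 2.78), the bHLH factor gene ZmbHLH116 (GRMZM2G042895, 2.31) and the amylase gene ZmAMY5 (GRMZM2G058310, 1.84), and the median was 2.08. In ZmNF-YA1 OE all 4 rose, the peroxidase gene ZmPOD64 (AC205413.4_FG001) included, beside 24.2% of all genes that were DEGs. The values were 4.46 for ZmLOX5, 1.76 for ZmbHLH116 and 2.48 for ZmAMY5. In B104 under drought, where ZmMBF1c was also higher, 2 of 3 tested rose, ZmLOX5 (2.21) and ZmbHLH116, beside 25.1% of all genes that were DEGs. In ZmNF-YB16 OE, where 23.2% of all genes were DEGs, none of 3 was a DEG with edgeR or DESeq2. None of these 3 had an unadjusted P below 0.05 there. Their values in the W22 set, given with no test, went both ways, with -4.20 and -6.00 for ZmAMY5 and -0.24 and -3.26 for ZmLOX5 in W22 and zmnf-ya1 under drought and 3.48 and -1.20 for ZmbHLH116. ZmPOD64 was higher under drought in both genotypes, by 4.96 (SE 0.38) in zmnf-ya1. Its value in W22 had no usable SE and is not given. ZmNF-YA1 (GRMZM2G000686) fell under drought in B104 (log2 fold change -1.85, SE 0.10, adjusted P = 4.5e-12, edgeR) and in ZmNF-YB16 OE (-1.24, SE 0.11, adjusted P = 9.89e-09, edgeR). Its log2 fold changes were -0.70 in DH4866 and -0.93 in ZmNF-YA1 OE, short of the threshold on the fold change. Of the list of 14 NF-YA genes and ZmNF-YC17, 11 were tested in the B104 set, where 1 rose and 2 fell in B104 under drought (25.1% of all genes were DEGs) and 2 rose and 2 fell in ZmNF-YB16 OE (23.2%). The drought response of 5 was higher and of 1 lower in ZmNF-YB16 OE than in B104 by the DEG rule, beside 3.23% of all genes in the former direction. In the DH4866 set 13 were tested, of which 2 fell in DH4866 (26.9%) and 1 rose and 1 fell in ZmNF-YA1 OE (24.2%).

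The genes whose levels ran most alike with each of the 3 were taken by Pearson's r of log2(CPM + 1), centred on the mean of each set, over all 24 libraries among the genes tested in all 3 sets (19791 compared with ZmMBF1c). The libraries share their groups and depth, so r is a description. For ZmMBF1c these were GRMZM2G416484 (r = 0.970), annotated as a multiple C2 and transmembrane domain protein, GRMZM2G007729 (r = 0.969), annotated as a precursor of a low molecular weight heat shock protein, and GRMZM2G175164 (r = 0.957), annotated as a serine/threonine protein kinase. For ZmLSD1 they were GRMZM2G303993 (r = 0.931) and GRMZM2G031028 (r = 0.911), both annotated as hypothetical proteins, and the cytochrome P450 gene GRMZM2G068465 (r = 0.903). For ZmCNR9 they were GRMZM2G092182 (r = 0.865) with no known product, GRMZM2G082199 (r = 0.814), annotated as elicitor-responsive protein 1, and the NAC factor gene GRMZM2G181605 (r = 0.799).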

How the data were processed

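RNA of maize leaves was sequenced in 24 libraries. The authors deposited, for each library, an estimated count (RSEM's expected count) and an FPKM value per gene, made after SOAPnuke filtering, HISAT and Bowtie2 mapping and the B73 V3 5b+ annotation, as the study's methods state for the W22 and B104 sets. BGISEQ500 and TRIzol served the W22 set, Illumina HiSeq and the McCarty extraction the B104 set. The labels name Trizol and TruSeq throughout. The tools of the DH4866 set are not given in the sources used here. Genes under 0.01 FPKM are not listed in the deposited files, and a gene missing from a library was taken as 0.

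Expected counts were rounded and tested with edgeR 4.0.16 (R 4.3.3) by the quasi-likelihood test with TMM scaling and filterByExpr by group. Each set of 8 libraries was fitted on its own, with 4 groups of 2, and P values were adjusted after Benjamini and Hochberg over all genes tested (21970 of 32617 in the B104 set, 24604 of 34040 in the DH4866 set). DEGs were called at an adjusted P below 0.05 and a log2 fold change of more than 1 in size. The DH4866 and B104 drought responses were compared in 1 fit of 16 libraries. In the W22 set (24159 of 33789 genes) fold changes and SE were given with no test. Replicates are pools of plants or separate samples by label only, so P values measure the spread between these samples. No 2 libraries were identical. DESeq2 1.42.0, limma 3.58.1 on log2(FPKM + 1), other scalings, no filter, a stricter P, leaving out each library, a replicate block and sums with near family members were the alternatives. The code was tested on simulated data. Depth per library sets the precision of low genes, and limits for a count of 0 (3 counts) cover counting error only.

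The 3 genes and all lists were chosen with earlier results of these data known. Lists came from words in the deposited annotation and the RefSeq table of Zm-B73-REFERENCE-NAM-5.0, which matched 18580 of 37467 IDs and was used for names and gene order only, since its build is not that of the files. Genes named besides the 3 are ZmNF-YA1, every tested family gene by its calls, called genes of each other list, and the 3 genes most alike to each. A limit of at most 4 called genes of each other list by mean level was passed for the heat stress factors and the LSD1 partners. These were named by comparison. The dividing tissue list matched no gene, and the pollen list summed to at most 115 FPKM in any library.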

Additional observations from a re-analysis of the deposited data

Results flagged for a closer look

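The drought response differed between the 2 genotypes of a set, by edgeR's test of the interaction, for ZmMBF1c in the B104 set (-0.89, ZmNF-YB16 OE minus B104) and in the DH4866 set (-0.80, ZmNF-YA1 OE minus DH4866), for ZmLSD1 in the DH4866 set (-1.39), and for ZmCNR9 in the B104 set (3.04) and in the DH4866 set (1.24). The 3 genes are listed here by adjusted P below 0.05 alone, and other genes of their families only where the difference was a DEG. CNR4 of the B104 set was left out, since it was listed at 0 in 1 group. By this rule CNR10, next to ZmCNR9 in the genome, had a difference of 6.51 in the B104 set. In the DH4866 set the difference for CNR10 was 0.95, short of the threshold on the fold change. The response of ZmMBF1c in DH4866 minus that in B104 was -3.07 by the same kind of test.

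The responses of zmnf-ya1, DH4866 and B104 were also set beside that of W22, and other pairs with a line of the W22 set are not listed. In 4 further cases among these the drought libraries lay above the normal libraries in one line and below them in the other. These differences were not tested because the W22 set gives no independent test. They were the response of ZmMBF1c in B104 minus that in W22 (2.74), and the response of ZmCNR9 in zmnf-ya1 minus that in W22 (-2.47), in DH4866 minus that in W22 (-3.46) and in B104 minus that in W22 (-2.42). The cases were taken only by groups of 2 that do not overlap, which 74.1% to 80.6% of genes in the tested sets also had for drought. How many genes had opposite directions was not counted. ZmCNR9 in B104 rested on 23 and 6 against 4 and 8 counts, and that call was lost without single libraries. Groups of 2 libraries allow no search for single libraries that stand apart.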

How the results depend on the processing

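Directions held under most alternatives, and the values that moved are given here with their cause not tested unless the construction shows it. With DESeq2 these log2 values lost their call: for ZmCNR9 drought in B104 (-1.75), drought in ZmNF-YB16 OE (1.28), the lines of the B104 set under drought (1.78) and the DH4866 set interaction (1.25), and for ZmLSD1 the DH4866 set interaction (-1.39). Its DEG counts were 352 (normal), 346 (drought) and 648 (interaction) in the DH4866 set, against 721, 782 and 1224. At an adjusted P of at most 0.001 the calls of ZmCNR9 (-1.78, 1.26, 1.75, 3.04 and 1.24) and of ZmLSD1 (-1.39) were lost, and the DEG counts were 1596, 1629 and 620 in the B104 set (2608, 2545 and 1480) and 325, 304 and 523 in the DH4866 set. With limma on log2(FPKM + 1), which understates low genes, ZmCNR9 for drought in B104 (-0.86) and the DH4866 set interactions of ZmLSD1 (-0.91) and ZmCNR9 (0.74) fell short, and the DEG counts were 3283 (6612) and 3036 (5959) for drought in DH4866 and ZmNF-YA1 OE and 252, 196 and 594 for the lines and their interaction. With a pseudocount of 0.1 the last ZmCNR9 value was 1.13 (adjusted P = 0.0631, limma), and with no filter it was 1.24 (adjusted P = 0.0536, edgeR). Both passed the threshold on the fold change and missed that on P.

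Sums with near family members are carried by the more abundant genes. They reversed ZmCNR9 for drought in ZmNF-YB16 OE (-0.12) and for DH4866 against B104 (3.22), ZmMBF1c for the lines of the B104 set under normal conditions (-0.42), drought in DH4866 (0.31) and ZmNF-YA1 OE (0.054) and DH4866 against B104 (0.27), and ZmLSD1 for drought in ZmNF-YA1 OE (0.056) and the DH4866 set interaction (0.17), and gave -0.015 for ZmLSD1 between the lines under drought. Scaling by total counts alone shifted the median of all genes to 0.29 (B104 drought), 0.26 (ZmNF-YB16 OE drought), -0.10 (ZmNF-YA1 OE drought) and -0.36 (DH4866 against B104), and the share of DEGs that were higher from 48.2% to 65.9%, from 48.7% to 64.9% and, for DH4866 against B104, from 50.9% to 36.7%. It gave in the W22 set, in an alternative chosen after seeing the data, -2.44, -1.44, -1.24 and 1.00 for ZmMBF1c (both drought responses, genotypes under normal conditions, interaction), -0.29 for ZmLSD1 and 0.87 and -2.10 for ZmCNR9 (genotypes under normal conditions, interaction).

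Leaving out 1 library at a time gave these ranges. For ZmCNR9 they were -2.35 to -0.90 (B104 drought), 0.99 to 1.49 (ZmNF-YB16 OE drought), -1.69 to -0.41 and 1.33 to 2.34 (lines of the B104 set, normal and drought), 2.15 to 3.61 and 0.90 to 1.62 (interactions of the B104 and DH4866 sets) and -1.91 to -0.43 (DH4866 against B104). For ZmLSD1 the DH4866 set interaction ran from -1.59 to -1.16. For ZmMBF1c the lines of the B104 set under normal conditions ran from 0.63 to 1.11 and their interaction from -1.21 to -0.73, with the libraries that carry them past the threshold given above. Ranges in the W22 set, chosen after seeing the data, were 0.38 to 0.94 and 1.02 to 1.58 (ZmCNR9, drought in W22 and genotypes), -0.95 to -0.74 (ZmMBF1c, genotypes) and -2.50 to -1.94 and -2.22 to -1.68 (ZmLSD1, drought).

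Nothing but the number is known to link same-numbered libraries. Correlations of their deviations ran from -0.020 to 0.028 in the B104 set. They were all positive in the DH4866 set (0.060 to 0.195) and in the W22 set (0.030 to 0.097), and the cause was not tested. With a replicate block no call of the 3 genes changed, and DEG counts were 5491 against 5524 for B104 drought, 6636 against 6612 for DH4866 drought and 1310 against 1224 for the DH4866 set interaction. Depth limits ZmLSD1 and ZmCNR9 in the B104 set, at 25 counts or fewer in any library.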
